A study of Mus musculus with 8 samples.

Results

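Transcription factors known for epithelial-mesenchymal transition (EMT) and for mesenchymal cell identity were examined in mouse primary cardiac fibroblasts by RNA-seq. The genes were Snai1, Snai2, Twist1, Twist2, Zeb1, Zeb2, Prrx1, Scx, Foxc2 and Sox4, taken by their symbols from a table of 22274 genes. All 10 were in the table, and all 10 passed the filter on low counts that left 13533 genes for testing. The list was set by name and no measured value enters its rule, although it was drawn up with earlier results of these data known.

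The cells came from mouse heart and were labelled as fibroblasts, and all 8 libraries were from cells treated with TGF-β, at 5 ng/ml for 24 h by the study's description. The 4 libraries labelled GFP came from cells that received the control virus, and the 4 labelled OEIRF7 came from cells that received a virus meant to raise IRF7, an interferon regulatory factor that the study places in fibroblast activation. There was no library without TGF-β, so the comparison shows a difference between viruses within TGF-β-treated cells. The study's text names an adenovirus, whose listed IRF7 vector holds the human gene behind a CMV promoter together with EGFP, whereas the deposited description names an adeno-associated virus. The strain, age and sex of the animals are not given in the labels, nor is whether the libraries came from separate cultures or animals, so p-values measure only the spread between these libraries. There are more libraries in a group than the biological replicates that the study's legend names for this experiment, so the n of 4 counts libraries. Mouse Irf7 was examined first and had 118 ± 24 CPM (counts scaled to a common library size, per 1e6) in the GFP libraries and 15.2 ± 0.822 in the libraries labelled OEIRF7 (SD, n = 4 each; log2 fold change -2.96, edgeR adjusted p = 7.7e-11). Counts of mouse Irf7 alone cannot settle the label if the virus held human IRF7, and they go against it if the virus held the mouse gene. All directions below are those of the libraries labelled OEIRF7, in which mouse Irf7 was lower.

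Snail factors (Snai1, Snai2) and ZEB factors (Zeb1, Zeb2) are zinc-finger repressors that bind E-box motifs in genes of epithelial adhesion such as Cdh1, which encodes E-cadherin. Twist1, Twist2 and Scx are basic helix-loop-helix (bHLH) proteins that pair with E proteins (Tcf3, Tcf4, Tcf12), and the Id proteins compete for the same partners. Prrx1 is a homeobox factor of limb and fibroblast mesenchyme, Foxc2 a forkhead factor of mesenchyme and vessels, and Sox4 an HMG-box factor that TGF-β is known to induce. Fibroblasts are mesenchymal already, so in the heart these genes are known less for a transition than for fibroblast state, for epicardium-derived cells and for tendon-like matrix programmes.

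Promoter windows of members that rose are shown first, since the virus was meant to deliver a transcription factor. RefSeq windows on GRCm38.p6 cover 250 bases before to 50 bases after an annotated start, and 6 of the 10 genes had one (Prrx1, Snai1, Sox4, Twist1, Twist2 and Zeb2). The sequences are written 5′ to 3′ on the gene's strand. Capitals mark matches on either strand to the E-box CANNTG, to its form CAGGTG that Snail and ZEB factors bind, to the interferon regulatory factor (IRF) element, which is GAAA, then 2 bases of any kind, then GAAA, or to the SMAD element CAGAC. The Prrx1 window is chr1:163313601-163313900 on the minus strand, that of Zeb2 at the start farthest upstream is chr2:45117393-45117692 on the minus strand, and that of Snai1 is chr2:167537945-167538244 on the plus strand.
Prrx1: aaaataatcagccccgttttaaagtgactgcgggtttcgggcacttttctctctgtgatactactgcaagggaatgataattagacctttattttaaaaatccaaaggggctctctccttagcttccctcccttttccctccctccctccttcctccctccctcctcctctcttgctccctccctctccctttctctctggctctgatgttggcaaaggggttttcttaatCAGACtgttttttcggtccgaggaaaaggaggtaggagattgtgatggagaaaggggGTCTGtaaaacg
Zeb2: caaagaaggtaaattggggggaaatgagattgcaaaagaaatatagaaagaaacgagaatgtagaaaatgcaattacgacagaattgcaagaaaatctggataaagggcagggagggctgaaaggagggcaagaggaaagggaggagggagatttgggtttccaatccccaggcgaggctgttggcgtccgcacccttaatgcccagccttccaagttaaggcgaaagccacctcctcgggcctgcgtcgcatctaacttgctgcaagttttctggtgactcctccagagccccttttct
Snai1: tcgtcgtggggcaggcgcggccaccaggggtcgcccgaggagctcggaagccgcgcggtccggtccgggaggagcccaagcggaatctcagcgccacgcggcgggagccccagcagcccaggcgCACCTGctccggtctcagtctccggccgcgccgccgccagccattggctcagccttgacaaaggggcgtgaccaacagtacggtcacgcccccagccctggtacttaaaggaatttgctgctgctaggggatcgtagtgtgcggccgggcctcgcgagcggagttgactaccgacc
The Prrx1 window held 2 CAGAC matches and none of the other motifs. The Zeb2 window shown held no match, nor did the windows of its other 3 starts. The Snai1 window held 1 E-box, which has the CAGGTG form read on the opposite strand. The window of Sox4 held 1 E-box and 2 CAGAC matches, that of Twist1 held 1 CAGAC match, and that of Twist2 held none. No window of these 6 genes held the IRF element, a motif present in 3.44% of 32851 promoter windows of the same length. For so rare a motif, absence from 6 genes was the likely outcome beforehand. Sequence outside these windows was not searched, so the absence does not bear on whether IRF7 acts on these genes. Of these windows, 72.3% held CANNTG, 20.2% held CAGGTG, which is a subset of it, and 49.6% held CAGAC. A match describes letters in a window and is not a bound site.

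The 10 genes were compared between the groups with edgeR's quasi-likelihood test, and p-values were adjusted by Benjamini-Hochberg over all 13533 tested genes. At adjusted p under 0.05, 6 genes were higher in the libraries labelled OEIRF7 (Prrx1, Zeb2, Snai1, Sox4, Twist2, Foxc2) and 2 were lower (Scx and, by counts but not by FPKM, a level per transcript length, Zeb1). Snai2 and Twist1 did not pass. Thus 80.0% of the 10 genes were called, against 58.9% of all tested genes, of which 29% were called higher and 29.9% lower. Leaving out GFP replicate 2, GFP replicate 4 or OEIRF7 replicate 4 lowered the genes called higher from 6 to 3 and kept 2 lower, so that 5 of the 10 were called beside 56.8%, 56% and 57% of all genes tested in those fits. Of the 10, 3 also changed by over 1.5-fold, namely Prrx1, Zeb2 and Scx, against 18.9% of all tested genes. The groups did not overlap in CPM for 6 of the 10 (Prrx1, Zeb2, Sox4, Twist2, Scx, Zeb1), against 53.8% of all tested genes. The median log2 fold change of the 10 was 0.17 and the median size 0.24, beside 0.00 and 0.25 over all tested genes. The median size of change was thus like that of the table as a whole.

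**Figure D1:**
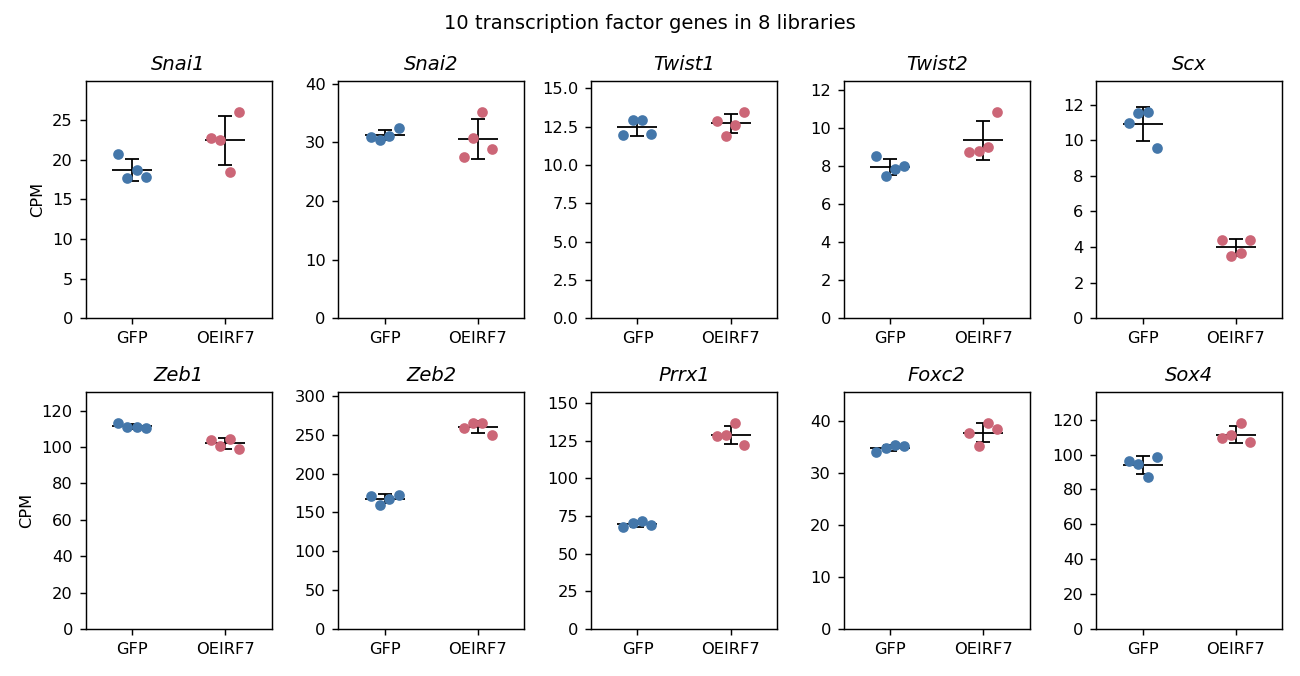
CPM of the 10 transcription factor genes in each of the 8 libraries, 4 labelled GFP and 4 labelled OEIRF7, with 1 panel a gene and each vertical axis starting at 0. Points are libraries, the long bar is the mean and the error bars are 1 SD (n = 4). The groups stand far apart for Prrx1, Zeb2 and Scx and overlap for Snai1, Snai2, Twist1 and Foxc2.

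Prrx1 (ENSMUSG00000026586) encodes a paired-related homeobox factor that marks mesenchymal progenitors and fibroblasts, and it showed the largest rise of the 10. In GRCm38 it spans 163245119 to 163313710 of chromosome 1, minus strand. In the GFP libraries it had 67.4, 70.1, 71.6 and 68.8 CPM, and in the libraries labelled OEIRF7 it had 128, 128, 137 and 122 CPM. Every library labelled OEIRF7 was above every GFP library by a wide margin, and the spread within each group was small. The means were 69.5 ± 1.79 and 129 ± 6.08 CPM (SD, n = 4 each), a 1.85-fold difference with a log2 fold change of 0.89 (SE 0.040, 95% interval 0.80 to 0.98, edgeR adjusted p = 1.9e-10). This change was larger than that of 89.4% of tested genes, and it ranked 6 of 62 tested genes that the authors' table assigns to the homeobox family. By FPKM, a level per length, Prrx1 moved from rank 236 to rank 110 of 1119 tested transcription factor genes. Its relative Prrx2 had only 8 to 31 counts a library and a log2 fold change of -0.09 (edgeR adjusted p = 0.83).

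The ZEB genes went different ways. Zeb2 (ENSMUSG00000026872), on the minus strand of chromosome 2 from 44983632 to 45117395, had the highest mean FPKM of the 10 in both groups. Its CPM was 171, 160.0, 168 and 173 in the GFP libraries and 259, 265, 266 and 249.8 in those labelled OEIRF7. The groups were separated by more than their own ranges. The means of 168 ± 5.67 and 260 ± 7.40 CPM (SD, n = 4 each) gave a 1.55-fold difference, a log2 fold change of 0.63 (SE 0.035, 95% interval 0.55 to 0.71, edgeR adjusted p = 1.7e-09). By FPKM it moved from rank 83 to rank 40 among the 1119 transcription factor genes. The antisense gene Zeb2os overlaps exons of Zeb2 on the opposite strand, and the strand setting of the counting is not given in the sources used here. If strand was not used, reads of these genes cannot be told apart.

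Zeb2 is also expressed by macrophages and endothelial cells. Of 8 macrophage and leukocyte markers, 4 were called higher and none lower, against 29% higher and 29.9% lower of all tested genes. Their summed FPKM was 195 to 230 in the GFP libraries and 244 to 276 in those labelled OEIRF7. Most of this sum was Lyz2, the lysozyme gene, at a mean of 152 and 180 FPKM, and the means of Cd14 (4.33 and 10.2 FPKM), Cd68 (25.2 and 29.8), Adgre1 (6.10 and 7.36) and C1qa (17.0 and 19.1) were also higher. The pan-leukocyte gene Ptprc was at 1.12 and 1.07 FPKM, the macrophage receptor gene Csf1r at 8.31 and 7.94, and Fcgr1 at 1.02 and 1.06 FPKM. Of 8 endothelial markers, 3 were called higher and 1 lower, against the same 29% and 29.9%. Their sums were 75.8 to 79.8 and 80.3 to 87.0 FPKM. The part of these cell types in the rise of Zeb2 was not tested. In bulk RNA, fewer cells of a type and less RNA per cell cannot be told apart.

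Zeb1 (ENSMUSG00000024238), the other ZEB factor, had 113, 111, 111 and 110.3 CPM in the GFP libraries and 104, 101, 105 and 98.8 CPM in those labelled OEIRF7. All 4 of the latter were lower, although the difference was small. The means of 111 ± 1.34 and 102 ± 2.79 CPM (SD, n = 4 each) gave a log2 fold change of -0.13 (SE 0.034, 95% interval -0.20 to -0.06, edgeR adjusted p = 0.0043). Gm10125 overlaps exons of Zeb1 on the opposite strand.

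The deposited FPKM did not show this fall of Zeb1. They were 22.6, 26.7, 22.7 and 21.7 in the GFP libraries and 26.5, 22.9, 31.2 and 20.9 in those labelled OEIRF7, so the groups overlapped, and limma on log2(FPKM + 1) gave a log2 fold change of 0.10 (adjusted p = 0.47). The count and the FPKM of a gene are linked by a length, which can be computed for each library as counts divided by FPKM and by the library total. For Zeb1 this length ran from 3354 to 5033 bases, a ratio of 1.5, with a coefficient of variation of 13.2%. That variation was higher than in 98.0% of the 10038 genes for which it was computed, whose median was 1.20%. The lengths were 4967, 4133, 4854 and 5033 bases in the GFP libraries and 3978, 4447, 3354 and 4773 in those labelled OEIRF7, and the groups overlapped. For the other 9 genes the ratio of the longest to the shortest length was at most 1.06, so their counts and FPKM moved together. The cause of the differing length was not tested.

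**Figure D2:**
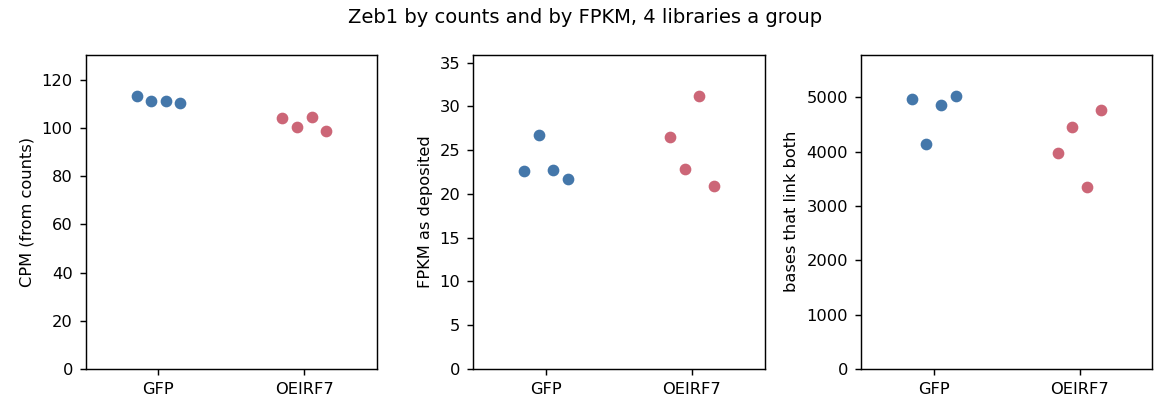
Zeb1 in the 8 libraries by 3 measures, each axis starting at 0: CPM from the counts, the deposited FPKM, and the length in bases that links the count to the FPKM. Points are libraries, 4 labelled GFP and 4 labelled OEIRF7. CPM separates the groups, at 102 against 111 on average, while FPKM and length overlap between them.

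Scx (ENSMUSG00000034161) encodes scleraxis, the bHLH factor of tendon and of collagen-producing fibroblasts, and its fall was the largest change of the 10. It lies on the plus strand of chromosome 15 from 76457452 to 76459458. It had 294, 288, 286 and 250 reads in the GFP libraries against 113, 101, 94 and 108 in those labelled OEIRF7. All libraries labelled OEIRF7 were below all GFP libraries, with a gap far wider than the range within either group. As CPM the means were 10.9 ± 0.957 and 3.98 ± 0.466 (SD, n = 4 each), which is 2.74-fold lower, with a log2 fold change of -1.46 (SE 0.11, 95% interval -1.68 to -1.23, edgeR adjusted p = 2.7e-08). The change exceeded that of 95.9% of tested genes and ranked 4 of 57 tested bHLH genes. By FPKM Scx moved from rank 296 to rank 603 of the 1119 transcription factor genes. Scx lies within Bop1, a ribosome biogenesis gene on the opposite strand, without overlap of exons. Bop1 had 48.4 ± 2.53 and 54.2 ± 1.5 CPM (SD, n = 4 each; log2 fold change 0.16, edgeR adjusted p = 0.0057), so its direction was opposite to that of Scx.

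The Twist genes, whose products pair with E proteins as scleraxis does, changed little. Twist1 (ENSMUSG00000035799) had 12.0, 12.9, 12.9 and 12.0 CPM in the GFP libraries and 12.9, 11.9, 12.6 and 13.5 CPM in those labelled OEIRF7. The groups overlapped, and the log2 fold change of 0.03 had a 95% interval of -0.12 to 0.18 (edgeR adjusted p = 0.75). Twist2 (ENSMUSG00000007805) had 8.51, 7.45, 7.82 and 7.97 CPM against 8.72, 8.79, 8.99 and 10.8 CPM. The groups did not overlap, but the highest GFP library and the lowest of the others were close, and replicate 4 of the libraries labelled OEIRF7 stood above the rest. The means of 7.94 ± 0.439 and 9.33 ± 1.0 CPM (SD, n = 4 each) gave a log2 fold change of 0.23 (SE 0.092, edgeR adjusted p = 0.043). Leaving that library out gave a log2 fold change of 0.15 (edgeR adjusted p = 0.15), and DESeq2 on all libraries gave an adjusted p of 0.062. The edgeR adjusted p was also above 0.05 without GFP replicate 2 (0.10), 3 (0.079) or 4 (0.075). Gm29100 overlaps exons of Twist2 on the opposite strand, so the counts of Twist2 are uncertain where strand was not used.

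The Snail genes are the early responders of EMT in many cells. Snai1 (ENSMUSG00000042821), on the plus strand of chromosome 2 from 167538195 to 167542814, had 20.6, 17.6, 18.6 and 17.8 CPM in the GFP libraries and 22.8, 22.4, 18.4 and 26 CPM in those labelled OEIRF7. Of the latter, 3 were above all GFP libraries and replicate 3 lay among them. The means of 18.7 ± 1.38 and 22.4 ± 3.10 CPM (SD, n = 4 each) gave a log2 fold change of 0.26 (SE 0.090, 95% interval 0.07 to 0.45, edgeR adjusted p = 0.022). Leaving out replicate 4 of the libraries labelled OEIRF7 gave a log2 fold change of 0.18 (edgeR adjusted p = 0.085), and the adjusted p was also above 0.05 without replicate 1 of those libraries (0.051) and without GFP replicate 2 (0.054) or 4 (0.061).

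Snai2 (ENSMUSG00000022676), also called Slug, had the higher mean FPKM of the Snail genes in both groups. In replicates 1 and 4 of the libraries labelled OEIRF7, however, Snai1 was the higher (14.2 against 13.8 and 16.2 against 14.4 FPKM). The CPM of Snai2 was 30.9, 30.4, 31.2 and 32.4 in the GFP libraries and 27.5, 30.7, 35.2 and 28.9 in those labelled OEIRF7. The latter scattered on both sides of the GFP range. The log2 fold change was -0.03 with a 95% interval of -0.18 to 0.11 (edgeR adjusted p = 0.72), an interval that leaves out a change of 1.5-fold in either direction. Snai3, the remaining Snail gene, had at most 4 counts in a library and was not tested.

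Sox4 and Foxc2 rose by less than 1.5-fold. Sox4 (ENSMUSG00000076431), on the minus strand of chromosome 13 from 28948919 to 28953713, had 96.1, 94.5, 86.9 and 98.6 CPM in the GFP libraries and 109.5, 111, 118 and 107 CPM in those labelled OEIRF7. All of the latter were higher, and the means of 94.0 ± 5.06 and 112 ± 4.78 CPM (SD, n = 4 each) gave a log2 fold change of 0.25 (SE 0.045, edgeR adjusted p = 0.00025). Foxc2 (ENSMUSG00000046714) had 34, 34.7, 35.3 and 35.2 CPM against 37.7, 35.2, 39.6 and 38.3 CPM. Here 3 of the 4 libraries labelled OEIRF7 were above the GFP libraries and replicate 2 lay within their range. The log2 fold change was 0.12 (SE 0.048, edgeR adjusted p = 0.0498), and with DESeq2 the adjusted p was 0.070. Leaving out any library other than replicate 2 of those labelled OEIRF7 also took the adjusted p of Foxc2 above 0.05, up to 0.13. Gm26735 overlaps exons of Sox4 on the opposite strand.

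**Figure D3:**
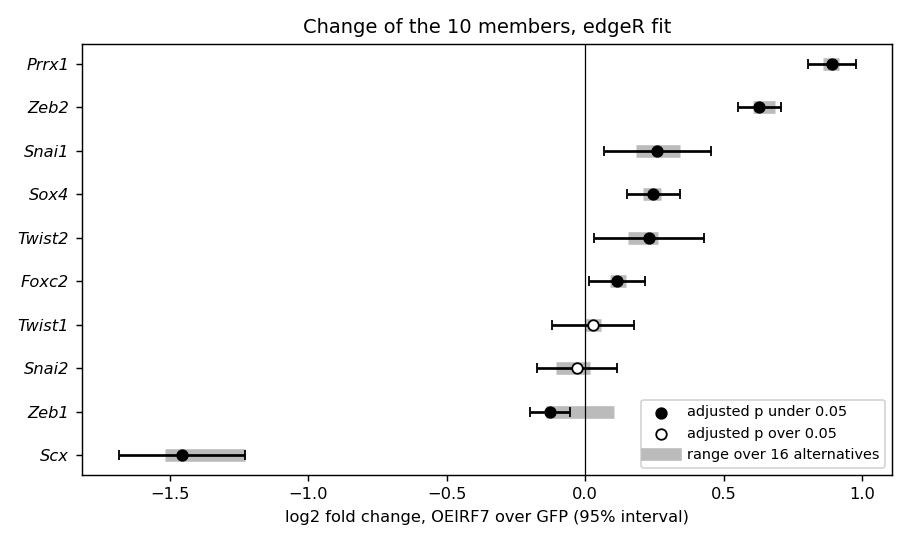
Log2 fold change of each of the 10 genes, libraries labelled OEIRF7 over GFP, from edgeR, with 95% intervals as thin bars; filled points have an adjusted p under 0.05. Grey bars span the values of 16 other settings. Scx and Prrx1 lie farthest from 0, and the grey bar of Zeb1 crosses 0 because FPKM gave 0.10.

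An exact two-sided permutation test over the libraries, which with 4 against 4 can give no p below 0.029, reached that value for the 6 genes whose groups did not overlap. It gave 0.086 for Snai1 and for Foxc2, 0.74 for Snai2 and 0.66 for Twist1.

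Levels of different genes were set side by side by the deposited FPKM, which account for length. In the GFP libraries Zeb2 was highest at 32.2 ± 1.26 FPKM, followed by Zeb1 at 23.4 ± 2.24, Sox4 at 19.4 ± 1.01 and Snai2 at 15.3 ± 0.388 FPKM (SD, n = 4 each). These first 4 did not overlap with their neighbours in the order. Prrx1 at 13.2 ± 0.351, Foxc2 at 12.6 ± 0.218, Snai1 at 11.4 ± 0.833 and Scx at 10.4 ± 0.934 FPKM followed, each overlapping with the next. Twist1 at 7.58 ± 0.341 and Twist2 at 5.89 ± 0.310 FPKM were lowest, apart from each other and from Scx. The order of Zeb2, Zeb1 and Sox4 depends on the length used, since CPM per kilobase of the longest coding transcript put Sox4 at place 1 and Zeb2 at place 3 in the GFP libraries.

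In the libraries labelled OEIRF7 the order by FPKM was altered at several places. Zeb2 reached 51.8 ± 2.04 FPKM and stood alone, while Zeb1 at 25.4 ± 4.54, Prrx1 at 24.9 ± 1.04 and Sox4 at 23.5 ± 0.907 FPKM overlapped (SD, n = 4 each). Prrx1 thus moved from place 5 to place 3. Snai2 at 15.3 ± 1.59, Foxc2 at 14.0 ± 0.639 and Snai1 at 13.9 ± 1.97 FPKM overlapped as well, and below them came Twist1 at 7.88 ± 0.390 and Twist2 at 7.05 ± 0.741 FPKM, which overlapped with each other. Scx, at 3.89 ± 0.461 FPKM, moved from place 8 to the last place and no longer overlapped with any other of the 10. By CPM per kilobase of the longest coding transcript it was not last in these libraries, at 3.85 beside 3.70 for Twist2.

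The balance between related genes was examined by the ratio of their read counts within each library, which needs no scaling between libraries. The ratio of Zeb2 to Zeb1 was 1.51, 1.44, 1.51 and 1.56 in the GFP libraries and 2.49, 2.64, 2.54 and 2.53 in those labelled OEIRF7. The groups were clearly apart, and the ratio was 1.69-fold higher in the second (log2 difference 0.76, exact permutation p = 0.029, n = 4 each). By FPKM, which carry the Zeb1 variation described above, the ratio was 1.39 ± 0.171 and 2.09 ± 0.377 (SD, n = 4 each), with the same direction and no overlap.

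The ratio of Scx to Twist1 was 0.916, 0.892, 0.897 and 0.794 in the GFP libraries and 0.340, 0.292, 0.293 and 0.325 in those labelled OEIRF7. Reads of the genes were thus close to equal in number in the GFP libraries only, and the log2 difference was -1.48 (exact permutation p = 0.029, n = 4 each). Foxc1, the close relative of Foxc2, went from 14.3 ± 0.627 to 9.18 ± 0.594 CPM (SD, n = 4 each; log2 fold change -0.64, edgeR adjusted p = 3.0e-06). The ratio of Foxc1 to Foxc2 was 0.434, 0.410, 0.420 and 0.383 and then 0.255, 0.249, 0.217 and 0.255, a log2 difference of -0.76 (exact permutation p = 0.029, n = 4 each), with the groups apart. The ratio of Prrx2 to Prrx1 had a log2 difference of -1.07 with the same p, but it rests on the few reads of Prrx2.

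Within the Snail and Twist families the groups overlapped. The ratio of Snai2 to Snai1 was 1.5, 1.73, 1.67 and 1.82 against 1.21, 1.37, 1.91 and 1.11, a log2 difference of -0.29 (exact permutation p = 0.20, n = 4 each). The ratio of Twist2 to Twist1 was 0.710, 0.576, 0.605 and 0.663 against 0.678, 0.737, 0.713 and 0.804, a log2 difference of 0.20 (exact permutation p = 0.057, n = 4 each). The ratio of Sox11 to Sox4, with 10 to 24 reads of Sox11 a library, had a log2 difference of 0.03 (exact permutation p = 0.89, n = 4 each). Of the 7 ratios, 4 reached the smallest p that an unpaired test of this design allows, and with Benjamini-Hochberg adjustment over the 7 that p became 0.05. If the replicate numbers pair the libraries, an exact paired test can give no p below 0.125.

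**Figure D4:**
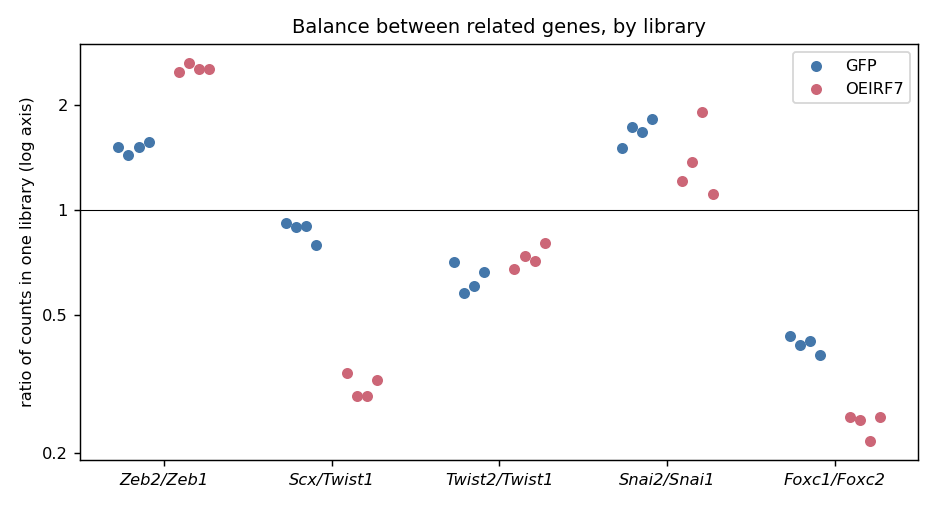
Ratio of read counts of 5 pairs of related genes within each library, on a log axis; points are libraries, 4 labelled GFP and 4 labelled OEIRF7, and the line marks equal counts. The groups are apart for Zeb2/Zeb1, Scx/Twist1 and Foxc1/Foxc2 and overlap for Twist2/Twist1 and Snai2/Snai1.

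Transcription factor genes as a class, by the family column of the deposited table, gave a setting for these values. Of 1119 tested, 262 were higher and 301 lower, so 50.3% were called, and 14.0% were called with a change over 1.5-fold. The bHLH family had 57 tested genes, of which 10 were higher and 29 lower, with a median log2 fold change of -0.16. In this family Scx ranked 4, Twist2 ranked 38 and Twist1 ranked 56 by size of change. In the zf-C2H2 family, with 486 tested genes and 43.0% called, Zeb2 ranked 45, Snai1 198, Zeb1 330 and Snai2 437. Sox4 ranked 25 of 40 tested HMG genes and Foxc2 ranked 17 of 25 tested forkhead genes.

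Relatives of the 10 genes gave a mixed picture, with 3 of 15 tested higher and 6 lower, a share of 60.0% called beside 58.9% overall and a median log2 fold change of -0.09. Meox1, a homeobox gene known in activated cardiac fibroblasts, rose from 20.6 ± 0.315 to 63.3 ± 4.82 CPM (SD, n = 4 each; log2 fold change 1.62, edgeR adjusted p = 1.7e-11). Tcf21, a bHLH gene of resident cardiac fibroblasts, fell from 58.3 ± 6.13 to 23.1 ± 3.49 CPM (log2 fold change -1.33, edgeR adjusted p = 2.0e-08), and Msc, another bHLH gene, had a log2 fold change of -0.97. Sox9, a chondrogenic and fibrotic SOX gene, fell from 81.3 ± 1.86 to 48.0 ± 4.81 CPM (log2 fold change -0.76, edgeR adjusted p = 3.5e-08), opposite in direction to Sox4. Foxf2 rose from 9.70 ± 1.08 to 17.9 ± 4.55 CPM (log2 fold change 0.88, edgeR adjusted p = 9.3e-05). Hand1, Mesp1, Snai3 and Tcf15 were too low to test.

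Partners and inhibitors of the Twist and scleraxis proteins were mostly lower. Of 7 tested, 6 fell and none rose (85.7% called, against 58.9% of all tested genes, of which 29.9% were lower), and the median log2 fold change was -0.62, the lowest of the 7 lists. All 4 Id genes, whose products lack a DNA-binding region and hold E proteins in inactive pairs, were among them. Id1 had a log2 fold change of -0.91, Id2 of -0.62, Id3 of -1.07 and Id4 of -1.79 (edgeR adjusted p at most 1.2e-06 for each). Id3 went from 50.4 ± 6.22 to 23.9 ± 1.84 CPM (SD, n = 4 each). Among the E proteins Tcf4 fell from 136 ± 5.42 to 99.2 ± 4.01 CPM (log2 fold change -0.45, edgeR adjusted p = 2.1e-07) and Tcf12 by 0.09 on the log2 scale (edgeR adjusted p = 0.030), and Tcf3 had a log2 fold change of 0.10 (edgeR adjusted p = 0.15).

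Cofactors and regulators of protein stability were called at about the share of all tested genes. Of 22 tested, 7 were higher and 6 lower (59.1% called, against 58.9% overall), and none passed 1.5-fold. Gsk3b, the kinase that marks Snail protein for degradation, fell from 186 ± 4.27 to 126 ± 2.59 CPM (SD, n = 4 each; log2 fold change -0.57, edgeR adjusted p = 2.2e-09), and Csnk1a1, a priming kinase, had a log2 fold change of -0.44. The deubiquitinase gene Usp9x had a log2 fold change of -0.52. The CtBP corepressors, which ZEB proteins recruit, split, with log2 fold changes of -0.47 for Ctbp1 and 0.39 for Ctbp2, and Prmt5, a methyltransferase gene, had 0.43. The edgeR adjusted p of these 6 was at most 9.4e-07.

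Many genes of epithelial cells had too few reads to test. Of 13 epithelial factors that oppose EMT, Klf4, Esrp2 and Grhl3 were tested. Klf4, which fibroblasts also express, rose from 70.6 ± 4.22 to 107 ± 8.22 CPM (SD, n = 4 each), a log2 fold change of 0.60 (edgeR adjusted p = 3.0e-07). Of the 3, 1 was lower, namely Grhl3, with 6 to 32 counts. Grhl3 reached the filter's limit in 4 GFP libraries and in 3 of those labelled OEIRF7, too few to pass on the latter alone. Esrp2 had a log2 fold change of -0.21 (edgeR adjusted p = 0.078). Of 25 adhesion genes known as repressed by Snail and ZEB factors, 17 were tested, of which 6 were higher and 6 lower (70.6% called, against 58.9% overall) with a median log2 fold change of 0.01. Cdh1 had 2 to 14 counts a library, with means of 0.127 ± 0.0526 and 0.466 ± 0.0153 CPM (SD, n = 4 each). It passed the filter on low counts through the libraries labelled OEIRF7 alone, as 0 GFP libraries reached the filter's limit, so a gene that was tested this way had to differ and its fold and p are not given. Cdh1 is 1 of the 6 higher, and Cdh3, tested through the GFP libraries, is 1 of the 6 lower. The 70.6% thus includes calls that the filter favoured.

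Other adhesion genes moved in both directions. Cldn4 and Cldn3, claudins of tight junctions, had log2 fold changes of 2.70 and 1.69 from means of 0.524 and 0.603 CPM. Krt19, a keratin that also marks mesothelium, rose from 4.75 ± 1.26 to 18.5 ± 4.74 CPM (SD, n = 4 each; log2 fold change 1.96, edgeR adjusted p = 3.7e-07). Dsp, the desmosomal plaque gene, fell from 130 ± 1.82 to 72.4 ± 3.85 CPM (log2 fold change -0.85, edgeR adjusted p = 2.7e-10), and Patj had a log2 fold change of -0.85. Cdh3, at means of 2.68 and 0.476 CPM, reached the filter's limit in 4 GFP libraries and in 2 of those labelled OEIRF7. It too was tested only because of the group where it is high, so its place among the genes called lower is no support. Of 7 tested epicardial and mesothelial markers, Krt19 among them, 2 were higher and 3 lower, against 29% and 29.9% of all tested genes. The summed FPKM of 8 such markers was 50.2 to 52.6 in the GFP libraries and 40.6 to 47.8 in those labelled OEIRF7. The part of such cells in these values was not tested.

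Mesenchymal genes were split. Of 30 tested, 11 were higher and 14 lower (83.3% called, against 58.9% of all tested genes), with a median log2 fold change of -0.09. Vim, the intermediate filament gene, rose by 0.22 on the log2 scale (edgeR adjusted p = 0.00011), and Cdh2, encoding N-cadherin, had a log2 fold change of -0.01 (edgeR adjusted p = 0.87). Acta2, the smooth muscle actin of myofibroblasts, fell from 2061 ± 74.3 to 581 ± 46.1 CPM (SD, n = 4 each; log2 fold change -1.83, edgeR adjusted p = 1.2e-12). Tagln and Cnn1, also of the contractile apparatus, had log2 fold changes of -0.98 and -1.30. Itga5, the fibronectin receptor subunit, rose from 288 ± 25.2 to 785 ± 44.1 CPM (log2 fold change 1.45, edgeR adjusted p = 4.95e-11), Tnc by 0.96 and Axl by 0.61 on the log2 scale.

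Tendon genes known to go with scleraxis were split as well. Of 11 tested, 4 were higher and 6 lower (90.9% called, against 58.9% overall), with a median log2 fold change of -0.16. The matrix genes Fmod, Col14a1 and Comp had log2 fold changes of -2.14, -1.36 and -1.20, and Fmod went from 76.8 ± 13.6 to 17.5 ± 1.40 CPM (SD, n = 4 each; edgeR adjusted p = 5.4e-10). The matrix genes Tnc and Thbs4 rose by 0.96 and 0.75 on the log2 scale (edgeR adjusted p = 1.0e-08 and 0.014), but Thbs4 had only 15 to 35 counts a library. The zinc-finger genes Egr1 and Egr2 also rose, by 0.96 and 1.62 on the log2 scale (edgeR adjusted p = 7.2e-06 and 5.3e-08). Mkx, the mohawk homeobox factor of tendon, had a log2 fold change of -0.17 (edgeR adjusted p = 0.036), and Tnmd and Kera were too low to test.

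**Figure D5:**
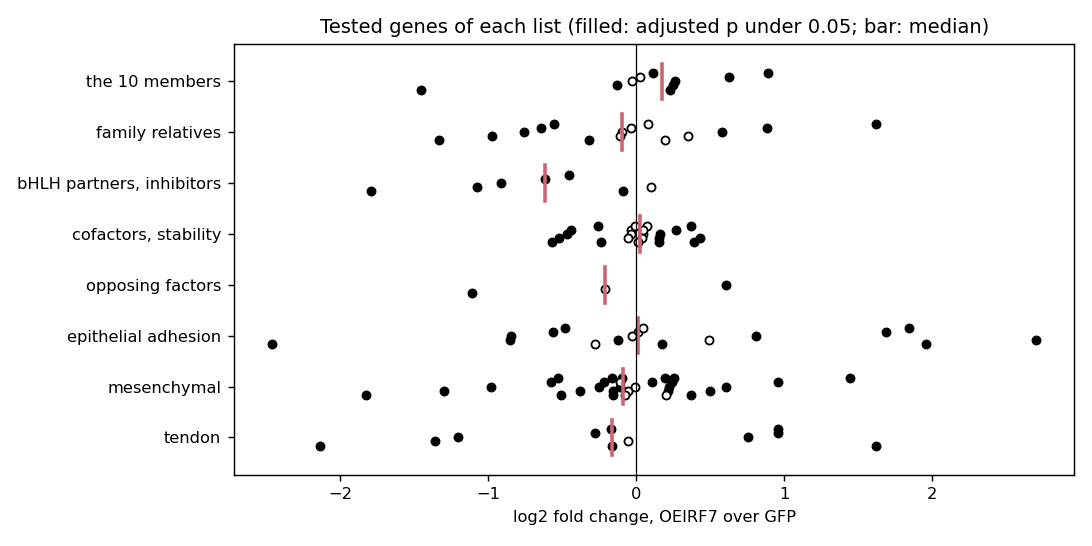
Log2 fold change, libraries labelled OEIRF7 over GFP, of each tested gene in the 10 members and in 7 lists of connected genes; filled points have an edgeR adjusted p under 0.05 and the bar is the list's median. The list of bHLH partners and inhibitors has its median at -0.62, the others between -0.21 and 0.17.

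The libraries held 24454801 to 28658826 counts, with 94 to 7693 counts for any of the 10 genes in any library, and scaling factors of 0.989 to 1.01. Fibroblast markers were abundant in both groups, with summed FPKM of 3949 to 4019 and 3829 to 4036 over 10 genes. Of these, 2 were called higher and 5 lower, against 29% higher and 29.9% lower of all tested genes. Of 8 cardiomyocyte markers, 7 were under 1 FPKM in every library, and Tnnt2 carried the sums of 8.80 to 12.3 and 6.89 to 9.44 FPKM. The sums were 9.08 to 10.03 and 10.7 to 13.3 FPKM for 7 mural markers and 10.6 to 13.5 and 11.3 to 13.2 FPKM for 6 Schwann and neural crest markers. Their part in the results was not tested.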

How the data were processed

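RNA-seq of 8 libraries was analysed, 4 labelled GFP and 4 labelled OEIRF7. The authors trimmed reads with Trimmomatic, mapped them with HISAT2 to GRCm38 and deposited raw counts per gene from HTSeq-count and FPKM from Cufflinks. Tool versions and the strand setting of the counting are not given in the sources used here, and the labels and the study differ on extraction and library kits and on the virus. The deposited group means, fold changes, p-values and FDR of the authors' own comparison were not used.

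In 121 gene symbols the letters nc had been replaced by GFP, and the names were put back by Ensembl identifier (22219 of 22274 identifiers were in GENCODE M21). Counts were tested in R 4.3.3 with edgeR 4.0.16 (filterByExpr, TMM, quasi-likelihood test, Benjamini-Hochberg adjustment over 13533 genes, threshold 0.05). CPM use the scaled library sizes. The common coefficient of biological variation was 0.0562. Ratios within a library used counts + 0.5, and levels between genes used FPKM. Alternatives were DESeq2 1.42.0, limma 3.58.1 on log2(FPKM + 1) and log2(FPKM + 0.1) with a mean above 0.1 FPKM, other scalings and count filters, a replicate block and leaving out each library. Exact tests were run in Python 3.11.15. On simulated counts with 200 genes changed 2-fold for this comparison, edgeR recovered 180 among 13437 genes tested, DESeq2 177 and limma 180 among 13533 genes each. Chi-square tests of replicate pairs gave 2.91 to 9.94 per degree of freedom, so no pair was a repeat of the same library. Counts of a library give a precision that covers counting error and not the spread between cultures.

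The 10 genes and the lists of connected genes were chosen with earlier results of these data known. Named from each list were up to 6 genes with the largest log2 fold change among those past adjusted p 0.05 and above a mean of 1 CPM, the relative in each ratio, and Cdh1, Vim and Irf7. Other names (Hand1, Mesp1, Snai3, Tcf15, Bop1, Tcf3, Cdh2, Esrp2, Grhl3, Mkx, Thbs4, Tnmd, Kera and single markers) were given after their values were seen. Sequences came from RefSeq windows of GRCm38.p6, and 4 of the 10 genes had no entry there.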

Additional observations from a re-analysis of the deposited data

Results flagged for a closer look

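Among the 20 sets of 4 libraries looked at (10 genes in 2 groups), 1 had a library far from the others. Twist2 reached 10.8 CPM in replicate 4 of the libraries labelled OEIRF7, where the other 3 had 8.72 to 8.99 CPM. The gap to the nearest library was 0.872 of the whole range, above Dixon's 95% limit for 4 values, a limit that chance passes in about 1 of 20 sets. Without this library the log2 fold change of Twist2 was 0.15 in place of 0.23.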

How the results depend on the processing

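Prrx1, Zeb2, Scx and Sox4 kept their direction and an adjusted p under 0.05 in all 16 other settings of the fit, with log2 fold changes of 0.86 to 0.92, 0.61 to 0.69, -1.52 to -1.23 and 0.21 to 0.27. The adjusted p rose above 0.05 in 4 of the 16 settings for Snai1 (range 0.0010 to 0.085), 6 for Twist2 (0.021 to 0.15) and 9 for Foxc2 (0.016 to 0.13). Zeb1 reversed with limma on FPKM, with log2 fold changes of 0.10 for both added values, which left 1 gene lower in place of 2; the lengths behind its FPKM differ between libraries, and the cause of that was not tested. The uncalled Snai2 ranged from -0.10 to 0.017 and the uncalled Twist1 from -0.00018 to 0.058 with 1 library left out, with a change of sign without OEIRF7 replicate 1 and 4, respectively. Leaving out 1 library gave 3 to 6 genes higher, with 3 without GFP replicate 2, GFP replicate 4 or OEIRF7 replicate 4, and 2 lower in each case. DESeq2 and a minimum of 1 count in total gave 4 higher, where 57.3% and 43.9% of all genes tested in those fits were called. Of 102 genes tested in the lists of connected genes, 31 were higher and 44 lower, against 29% and 29.9% of all tested genes. Over the other settings these counts stayed within 30 to 33 and 40 to 45, while 43.9% to 60.7% of all tested genes were called. The median log2 fold change of all tested genes was 0.0015 in the main fit, 0.029 without scaling beyond library size and 0.0023 with upper-quartile scaling. With limma on log2(FPKM + 0.1), another measure and model, it was 0.037.

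Same-numbered libraries deviated together only weakly (correlations of 0.079, 0.095, 0.138 and 0.104), yet every library correlated best with its own number. The labels do not say whether the numbers pair the samples, and these values leave a pairing possible. The main tests took the libraries as unpaired, and results with the numbers as pairs are given here beside them. With a replicate block, 8211 genes in place of 7969 were called, again with 6 of the 10 genes higher and 2 lower. A paired exact test over the numbers can give no p below 0.125, and with this replicate block the log2 differences of the ratios stayed at 0.76 for Zeb2/Zeb1, -1.48 for Scx/Twist1, -1.07 for Prrx2/Prrx1 and -0.76 for Foxc1/Foxc2, each at that p. Without 1 library these differences were 0.74 to 0.78, -1.53 to -1.45, -1.25 to -0.73 and -0.79 to -0.70, with no test. By CPM per kilobase of the longest coding transcript, the places in GFP were 3 for Zeb2, 1 for Sox4, 7 for Prrx1, 5 for Foxc2 and 6 for Snai1. Few reads limit the precision of Prrx2, Sox11, Cdh1, Cdh3, Grhl3 and Thbs4.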
